A study of Mus musculus with 6 samples.

Results

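The 32 genes described here encode p53, its regulators and targets, and the machinery of apoptosis. They were chosen by symbol from a deposited table of 25901 rows, and each of the 32 was found in a single row. Poly(A) RNA of the heart was sequenced, after oligo(dT) selection, from 3 SRAKO mice (SRAKO2365, SRAKO2371 and SRAKO2372), whose name marks loss of SRA, and from 3 wild-type mice (WT2368, WT2379 and WT2378). SRA, the steroid receptor RNA activator, is an RNA made from Sra1 and known to coactivate nuclear receptors. All 6 hearts came from mice that received isoproterenol over 4 weeks, a drug that stimulates beta-adrenergic receptors and makes the heart hypertrophy, so the response to isoproterenol itself cannot be read from them. Strain, age and the part of Sra1 that was removed are not given in the sources used here. How the mice were related is not given either, so p-values measure the spread between these 6 samples, which may be technical in part.

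p53 is a transcription factor that is held low by the ubiquitin ligase MDM2 and its relative MDM4 and is stabilised by DNA damage and other stress. Its targets stop the cell cycle, repair DNA, restrain growth signalling or push cells towards apoptosis. In the intrinsic pathway, BH3-only proteins release BAX and BAK from inhibitors such as BCL-xL and MCL1, the mitochondrial outer membrane opens, and cytochrome c assembles APAF1 and caspase 9 into the apoptosome. In the extrinsic pathway, FAS brings about the activation of caspase 8. Adult cardiomyocytes divide rarely, and loss of these cells through apoptosis is a known feature of prolonged adrenergic stimulation.

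The p53 decamer, a 10-letter element, was looked for in RefSeq promoters on GRCm38.p6, each from 250 bases before to 50 after a gene's start. Its pattern is RRRCWWGYYY, where R is A or G, W is A or T and Y is C or T. The pattern equals its own reverse complement, but a single match need not. Of the 32 members 28 had a promoter in that table, and Trp53inp1, Zmat3, Pmaip1 and Bnip3l had none. Read on both strands, the decamer was present in 7 of the 28 (25%), against 9.55% of the 27025 genes with a promoter there. The windows of these 7 are shown so that the letters can be set beside each gene's difference between hearts. Cdkn1a was the only member with a pair of decamers spaced by 0 to 13 bases, an arrangement found in 0.0731% of all 32851 promoters. Its promoter is that of an upstream start of the gene, at chr17:29090729-29090978 on the plus strand, and is given up to the start. The other windows hold 60 bases from the promoter of their gene, all before the start. They lie at chr11:69580259-69580318 (plus strand) for Trp53, chr10:117710910-117710969 (minus) for Mdm2, chr11:40755437-40755496 (minus) for Ccng1, chr10:41887241-41887300 (plus) for Sesn1, chr6:67037413-67037472 (minus) for Gadd45a and chr7:45467065-45467124 (minus) for Bax. Capitals mark the decamers.
Cdkn1a: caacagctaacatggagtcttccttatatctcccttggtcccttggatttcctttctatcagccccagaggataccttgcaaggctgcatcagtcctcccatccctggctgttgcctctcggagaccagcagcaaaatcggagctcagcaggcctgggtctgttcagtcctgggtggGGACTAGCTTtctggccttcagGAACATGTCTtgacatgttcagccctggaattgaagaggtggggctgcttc
Mdm2: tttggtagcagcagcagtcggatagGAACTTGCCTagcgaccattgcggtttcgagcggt
Ccng1: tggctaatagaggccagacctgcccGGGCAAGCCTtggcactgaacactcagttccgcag
Sesn1: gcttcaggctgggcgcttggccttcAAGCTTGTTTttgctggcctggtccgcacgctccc
Gadd45a: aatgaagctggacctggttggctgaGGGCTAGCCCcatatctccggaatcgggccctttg
Bax: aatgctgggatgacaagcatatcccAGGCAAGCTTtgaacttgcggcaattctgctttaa
Trp53: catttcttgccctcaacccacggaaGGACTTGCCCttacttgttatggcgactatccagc
A match is a description of letters and not evidence of binding. The log2 differences of these 7 genes, SRAKO minus WT, were 0.66 for Cdkn1a, 0.21 for Sesn1, 0.05 for Trp53, 0.0054 for Bax, -0.04 for Gadd45a, -0.08 for Mdm2 and -0.12 for Ccng1. Genes with the element thus lay on either side of 0.

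Expression is given as FPKM, the length- and depth-scaled fragment value that the authors deposited. An FPKM of 1 stood for 14.6 to 23.1 read pairs per kilobase, lowest in WT2368 and highest in SRAKO2372, if the low value shared by most single-transcript rows is read as 1 pair. Sra1 had 1.96, 1.78 and 2.05 FPKM in SRAKO hearts, against 4.40, 6.31 and 4.23 in WT hearts, in a row that also holds a transcript of its neighbour Apbb3 (log2 difference -1.01, SE 0.14; limma, adjusted p = 0.258). WT2368 stood apart from the other hearts, with 4548 FPKM of the mitochondrial ribosomal RNA mt-Rnr1, against 1896 in SRAKO2371 and 879 to 1122 in the others. It also held the lowest value of the 6 hearts in 44.9% of the 10201 rows tested. Cardiomyocyte markers, Myh6 and Tnnt2 among them, summed to 9021 to 9162 FPKM in SRAKO hearts and 8503 to 10309 in WT hearts. Markers of neutrophils were higher on average in SRAKO hearts in 10 of 10 genes, with sums of 3.41 to 68.7 against 1.28 to 13.2 FPKM. Mpo stayed below 0.1 FPKM in every heart and Ly6g was listed at 0 in 4 of them.

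No member passed the threshold. Rows with at least 1 FPKM in at least 3 hearts were tested with limma on log2(FPKM + 1), with Benjamini-Hochberg adjustment over all 10201 rows. That kept 25 of the 32 members, and each of the 25 had an adjusted p of 0.999, where 0.0196% of all rows were called (2 rows, Apc and Pafah1b1, lower in SRAKO). An unadjusted p under 0.05 was reached by 2 members (8%), Trp53inp1 higher and Bak1 lower, against a background of 3.46%. The groups did not overlap in 5 members (20%), against 8.05% of all rows. These were Mdm4, Trp53inp1, Fas and Mcl1, higher in SRAKO, and Bak1, lower. Macrophage marker sums did not overlap either, at 121 to 136 FPKM in SRAKO hearts and 100.004 to 119 in WT hearts, with 7 of 8 markers higher on average in SRAKO, and their part in these members was not tested. In bulk heart RNA, a change in the number of cells of a type and a change in RNA per cell cannot be told apart.

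Of the 25 tested members 18 had a higher and 7 a lower mean log2 value in SRAKO hearts, while 53.5% of all rows were higher. The median log2 difference was 0.08 over the members and 0.0094 over all rows. Most of the differences were small: 18 members (72%) lay within 0.2 of 0 on the log2 scale, as did 85.5% of all rows, and in 14 the standard error exceeded the difference. Without WT2368 the members divided into 13 higher and 12 lower with a median of 0.02, while the median of all rows was -0.04. WT2368 was the lowest of the 6 hearts in 13 of the 25 members (52%), against the 44.9% of all rows given above.

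**Figure D1:**
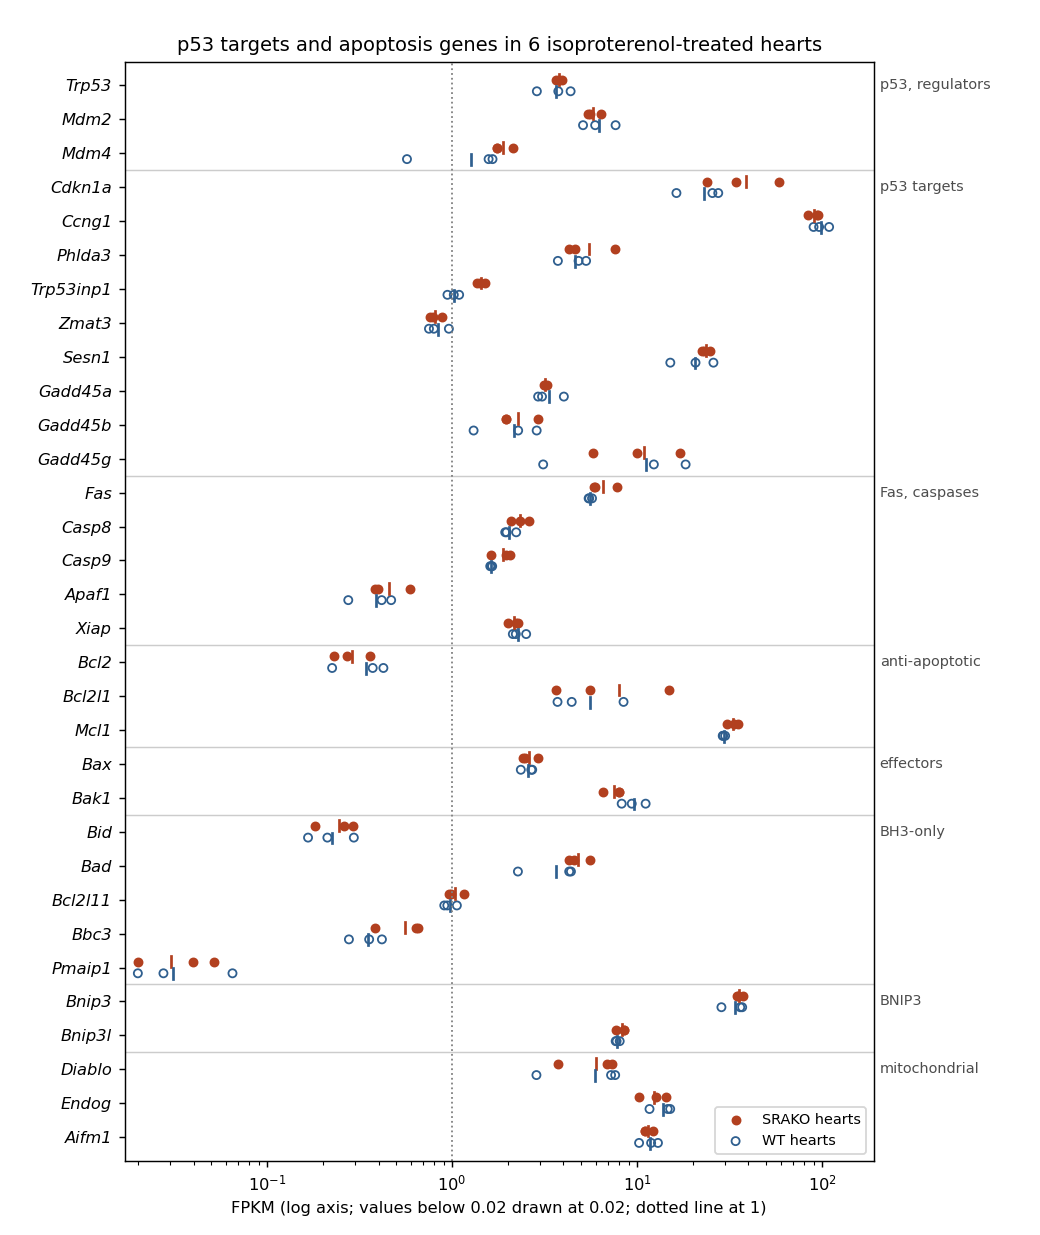
FPKM of the 32 members on a log axis, grouped by role, with a point for each SRAKO heart (filled, upper line) and WT heart (open, lower line) and a tick at each group mean. Levels run from Pmaip1, at or near 0, to Ccng1 at 83.4 to 109 FPKM, and the groups overlap in most genes.

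The members spanned a wide range of levels. On the FPKM scale, which corrects for length, Ccng1 was the most abundant and lay at the 97.2 percentile of tested rows, followed by Bnip3, Mcl1, Cdkn1a and Sesn1 at the 92.8, 92.1, 92.0 and 89.2 percentiles. Apaf1, Bcl2, Bid, Bbc3, Pmaip1, Zmat3 and Bcl2l11 did not reach the filter. Neighbours in that order, such as Bnip3 and Mcl1 at 35.7 ± 1.35 and 33.1 ± 2.12 FPKM in SRAKO hearts (SD, n = 3), were close to each other in relation to their spread.

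Trp53 itself, the gene of p53, varied more within groups than between them. It had 3.91, 3.77 and 3.65 FPKM in SRAKO hearts, against 2.87, 4.37 and 3.75 in WT hearts. The SRAKO values lay inside the WT range, and the log2 difference was 0.05 with a 95% interval of -0.25 to 0.34 (limma, adjusted p = 0.999). Mdm2, the ligase that marks p53 for destruction and a p53 target in its turn, had 6.34, 5.57 and 5.42 FPKM in SRAKO hearts, against 7.65, 5.94 and 5.10 in WT hearts. Its groups overlapped too, with a log2 difference of -0.08 and an interval of -0.41 to 0.24. The direction of both genes turned without WT2368, to -0.08 for Trp53 and 0.06 for Mdm2.

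Mdm4, which binds p53 and blocks its activation domain, had 1.75, 1.75 and 2.13 FPKM in SRAKO hearts, against 0.57, 1.65 and 1.58 in WT hearts. Every SRAKO heart was above every WT heart, but WT2368 lay far below the other 5. On the log2 scale SRAKO exceeded WT by 0.38, SE 0.20 (limma, adjusted p = 0.999), and by 0.14 without WT2368.

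Cdkn1a encodes p21, the inhibitor of cyclin-dependent kinases through which p53 halts the cell cycle, and its gene occupies chr17:29090979-29100722 (plus strand, GRCm38). It had 23.7, 34.1 and 58.4 FPKM in SRAKO hearts, against 16.3, 27.5 and 25.5 in WT hearts. SRAKO2371 and SRAKO2372 were above all WT hearts and SRAKO2365 was not. The log2 difference of 0.66 (SE 0.32; limma, adjusted p = 0.999) had the largest size among the 25 tested members. It was 0.32 without SRAKO2372, 0.44 without WT2368 and 0.95 without SRAKO2365. The hearts with the most Cdkn1a were also those with the highest neutrophil marker sums, 68.7 FPKM in SRAKO2372 and 33.8 in SRAKO2371, against 3.41 in SRAKO2365 and 1.89, 13.2 and 1.28 in WT2368, WT2379 and WT2378. Adipocyte marker sums were highest in the same hearts, at 197 FPKM in SRAKO2372 and 361 in SRAKO2371, against 145 in SRAKO2365 and 136 to 169 in WT hearts, with 8 of 8 markers higher on average in SRAKO. The part of either cell type in the result was not tested.

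Trp53inp1 encodes a stress-induced nuclear protein that enhances p53 activity and also takes part in autophagy. The gene occupies chr4:11156431-11174379 (plus strand). Its values were 1.41, 1.37 and 1.51 FPKM in SRAKO hearts, against 1.09, 0.944 and 1.02 in WT hearts. The groups were tight and apart, with means of 1.43 ± 0.0732 and 1.02 ± 0.0739 FPKM (SD, n = 3 each). On the log2 scale they differed by 0.27, SE 0.08 (limma, unadjusted p = 0.0119, adjusted p = 0.999). With any single heart left out it stayed between 0.24 and 0.29. The row was close to the filter, at the 7.37 percentile of those tested, and passed it in 3 SRAKO and 2 WT hearts.

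Ccng1, Sesn1, Phlda3 and Zmat3 overlapped between groups. Ccng1, cyclin G1, had 94.9, 83.4 and 93.3 FPKM in SRAKO hearts, against 109, 96.4 and 89.98 in WT hearts (log2 difference -0.12, interval -0.39 to 0.15). Sesn1, a sestrin that restrains mTORC1, averaged 23.5 ± 1.28 FPKM in SRAKO hearts and 20.6 ± 5.37 in WT hearts. Phlda3, which competes with AKT for membrane lipids, averaged 5.51 ± 1.84 and 4.62 ± 0.805 FPKM in SRAKO and WT hearts. Zmat3, an RNA-binding zinc finger protein, was below the filter at 0.809 ± 0.0639 and 0.836 ± 0.111 FPKM in SRAKO and WT hearts.

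The 3 GADD45 genes, stress sensors that activate p38 and JNK signalling, also overlapped between groups. Gadd45a averaged 3.19 ± 0.0748 FPKM in SRAKO hearts and 3.33 ± 0.599 in WT hearts. Gadd45b averaged 2.28 ± 0.556 and 2.15 ± 0.787 FPKM. Gadd45g varied most of all tested members in WT hearts in relation to its mean (SD 68.1% of the mean). It had 5.79, 17.1 and 10.0035 FPKM in SRAKO hearts, against 3.11, 18.3 and 12.3 in WT hearts. Its log2 difference of 0.12 had an interval of -1.21 to 1.45. Each group thus held a low heart, SRAKO2365 and WT2368.

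**Figure D2:**
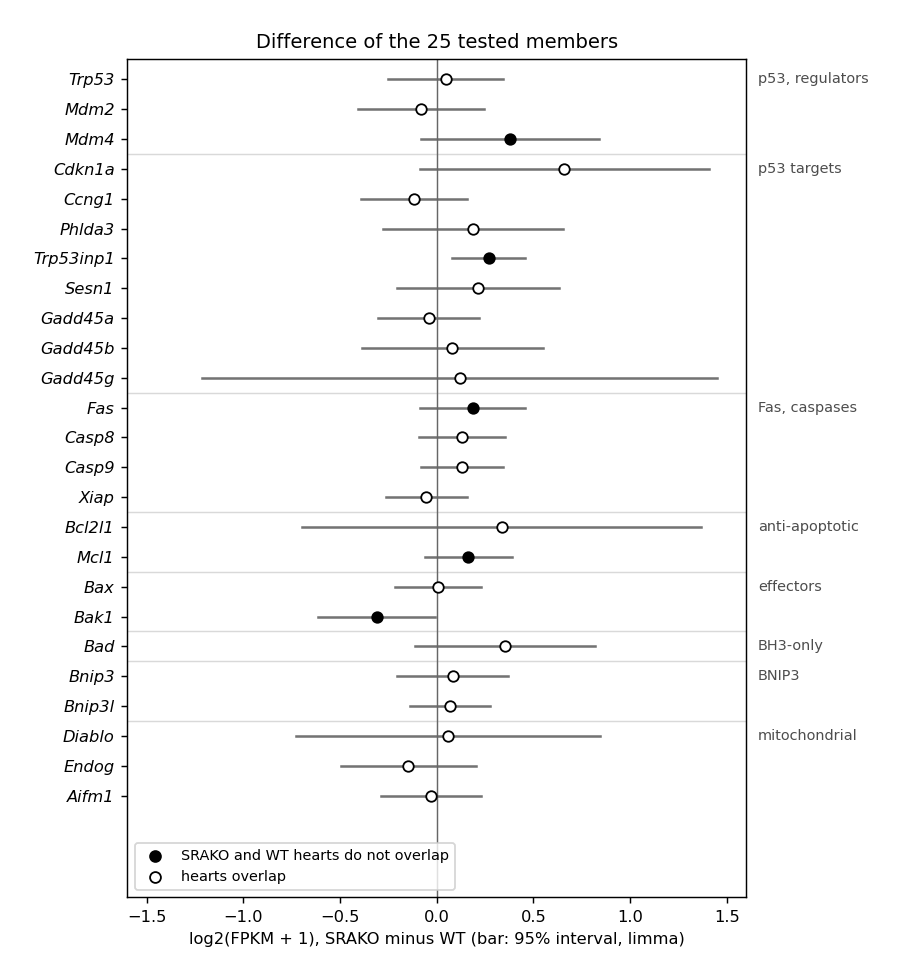
Log2 difference of each tested member, SRAKO minus WT, with its 95% interval from limma; filled points mark members whose groups do not overlap. Intervals of 23 of the 25 members include 0; those of Trp53inp1 (0.08 to 0.46) and Bak1 (-0.61 to -0.0083) do not, and neither passes adjustment.

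Fas, the death receptor through which T cells and other cells trigger apoptosis and a target of p53, did not overlap between groups. It had 5.95, 5.82 and 7.76 FPKM in SRAKO hearts, against 5.71, 5.47 and 5.51 in WT hearts. SRAKO2365 and SRAKO2371 lay close to the WT range and SRAKO2372 well above it. The log2 difference of 0.18 (SE 0.12; limma, adjusted p = 0.999) was 0.07 without SRAKO2372, the heart with the highest neutrophil marker sum. Casp8, the initiator caspase below Fas, averaged 2.33 ± 0.269 FPKM in SRAKO hearts and 2.04 ± 0.155 in WT hearts.

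Caspase 9, the initiator caspase of the apoptosome, had 1.96, 1.62 and 2.07 FPKM of Casp9 in SRAKO hearts, against 1.65, 1.63 and 1.61 in WT hearts. The WT hearts were close together, with an SD of 0.0196 FPKM. SRAKO2371 lay among them and the other SRAKO hearts lay above (log2 difference 0.13, interval -0.08 to 0.34). Apaf1, the scaffold of the apoptosome, was low. It had 0.591, 0.382 and 0.398 FPKM in SRAKO hearts, against 0.416, 0.275 and 0.468 in WT hearts, and stayed below the filter. Xiap, which inhibits effector caspases, averaged 2.16 ± 0.135 and 2.28 ± 0.203 FPKM in SRAKO and WT hearts.

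Among the anti-apoptotic genes of the Bcl2 family, Mcl1 dominated. Mcl1, which is needed for the survival of adult mouse cardiomyocytes, had 34.97, 30.8 and 33.4 FPKM in SRAKO hearts, against 29.9, 29.0 and 29.2 in WT hearts. The 3 SRAKO hearts lay above the 3 WT hearts, with means of 33.1 ± 2.12 and 29.4 ± 0.470 FPKM (SD, n = 3 each). The log2 difference was 0.16 (SE 0.10; limma, adjusted p = 0.999). Bcl2 was far lower, at 0.270, 0.230 and 0.358 FPKM in SRAKO hearts, against 0.425, 0.372 and 0.225 in WT hearts, and was not tested.

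Bcl2l1, which encodes BCL-xL, was carried by single hearts. It had 14.8, 3.66 and 5.60 FPKM in SRAKO hearts, against 8.45, 3.71 and 4.43 in WT hearts. The high hearts, SRAKO2365 and WT2368, belong to different groups. The log2 difference of 0.34 (interval -0.70 to 1.37) turned to -0.17 without SRAKO2365, was 0.13 without WT2379 and reached 0.71 without SRAKO2371. BCL-xL is also abundant in maturing red cells, and the summed FPKM of 5 erythroid markers, 4 globin genes and Alas2, was highest in the same pair of hearts, at 2425 in SRAKO2365, 1070 in SRAKO2371 and 1088 in SRAKO2372, against 2096, 1801 and 1397 in WT2368, WT2379 and WT2378. Each of the 5 markers had a lower mean in SRAKO than in WT hearts and none was near 0. The part of red cell RNA in Bcl2l1 was not tested.

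**Figure D3:**
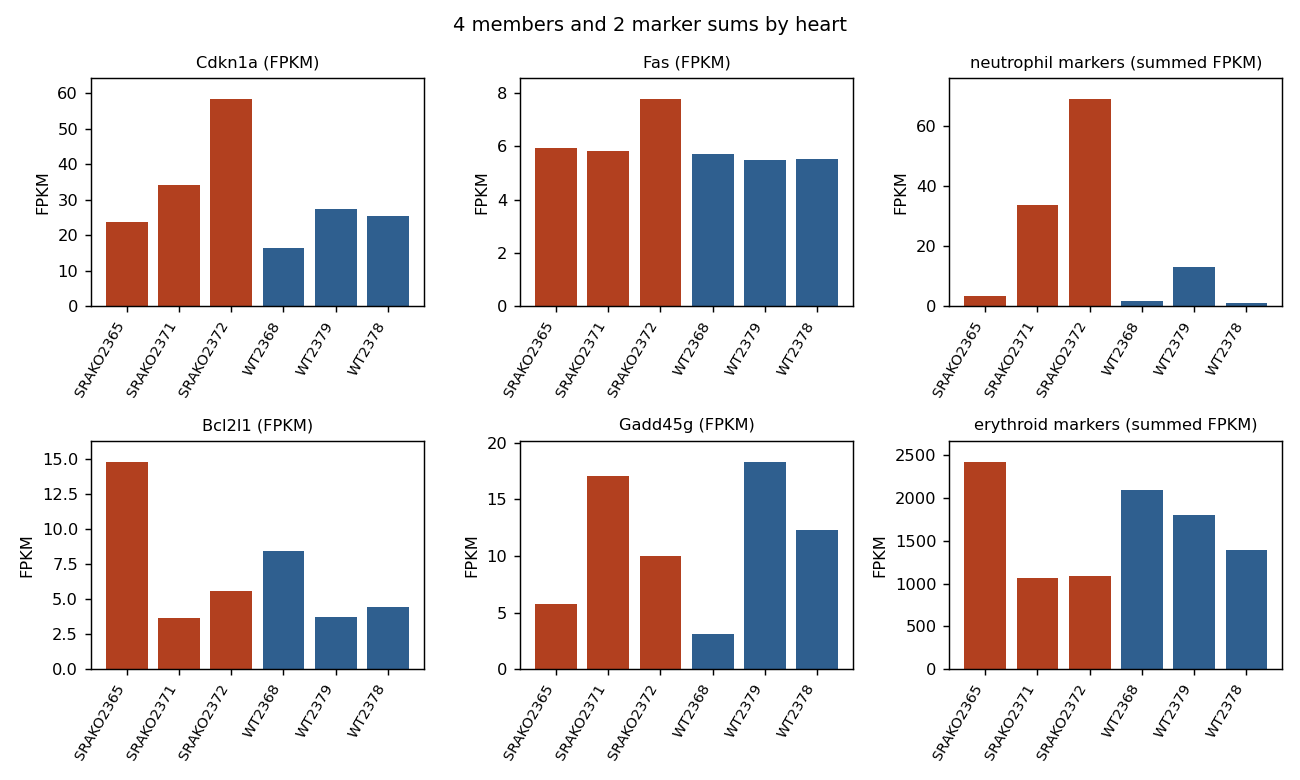
FPKM of Cdkn1a, Fas, Bcl2l1 and Gadd45g in each heart, beside the summed FPKM of 10 neutrophil and 5 erythroid markers (bars start at 0; SRAKO hearts red, WT hearts blue). Cdkn1a and Fas peak in SRAKO2372, which has the highest neutrophil sum, and Bcl2l1 peaks in SRAKO2365, which has the highest erythroid sum.

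The pore-forming effectors Bax and Bak1 were both tested, and neither passed adjustment. Bax had 2.40, 2.47 and 2.92 FPKM in SRAKO hearts, against 2.35, 2.71 and 2.68 in WT hearts, in a row shared with Gm45808 and Dhdh. The groups overlapped, and the log2 difference of 0.0054 had an interval of -0.22 to 0.23. Bak1, at chr17:27019810-27029009 (minus strand), had 7.95, 8.001 and 6.57 FPKM in SRAKO hearts, against 9.36, 8.26 and 11.1 in WT hearts. All SRAKO hearts lay below all WT hearts, though WT2379 was close to SRAKO2371. Its log2 difference was -0.31 (SE 0.13; limma, unadjusted p = 0.0453, adjusted p = 0.999). With single hearts left out it ran from -0.40 to -0.21, and the unadjusted p stayed under 0.05 without WT2379 (limma, unadjusted p = 0.0213, adjusted p = 0.995) but in no other such fit.

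The balance of Bax and its inhibitors was read as a log2 ratio of FPKM + 1 in each heart. Bax over Bcl2 averaged 1.48 ± 0.05 in SRAKO hearts and 1.42 ± 0.18 in WT hearts (SD, n = 3 each), a difference of 0.06 (exact two-sided permutation test, p = 0.7). Bax over Bcl2l1 averaged -1.13 ± 0.95 and -0.80 ± 0.61 in SRAKO and WT hearts, a difference of -0.33 (exact two-sided permutation test, p = 0.6). With 3 hearts against 3 this test cannot go below 0.1. Both differences were smaller than the spread in at least 1 of the groups. Bcl2 lay below the filter, at 0.225 to 0.425 FPKM. With 1 added, changes in Bcl2 are therefore compressed in the Bax to Bcl2 ratio. Bcl2 still had the larger log2 difference in size, at -0.06 with every row kept, against 0.0054 for Bax.

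Most BH3-only genes, the sensors that start the intrinsic pathway, were weakly expressed. Bbc3, which encodes the p53-induced protein PUMA, had 0.637, 0.381 and 0.658 FPKM in SRAKO hearts, against 0.356, 0.417 and 0.277 in WT hearts. SRAKO2371 lay within the WT range and the others above it. Below the filter, with every row kept, it differed by 0.20 on the log2 scale (SE 0.09; limma, adjusted p = 0.932). Pmaip1, the gene of NOXA, was listed at 0 in SRAKO2372 and WT2378 and stood at 0.065 FPKM at most, about 3.1 read pairs or fewer in each heart, so no difference was detectable at this depth. Bid, which links caspase 8 to mitochondria, averaged 0.245 ± 0.0565 and 0.224 ± 0.0648 FPKM in SRAKO and WT hearts, and Bcl2l11, the gene of BIM, 1.04 ± 0.109 and 0.970 ± 0.0807.

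Bad, whose product is held inactive by survival kinases, was the only BH3-only gene among the members that was tested. It averaged 4.82 ± 0.680 FPKM in SRAKO hearts and 3.65 ± 1.20 in WT hearts, with a log2 difference of 0.35 and an interval of -0.11 to 0.82. The WT mean was pulled down by WT2368 at 2.27 FPKM, while the other WT hearts, at 4.39 and 4.30, lay beside SRAKO2365 at 4.31.

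Bnip3 and Bnip3l encode outer-membrane receptors for mitophagy that are induced by hypoxia and linked to cardiomyocyte death. Bnip3 had 34.7, 35.3 and 37.3 FPKM in SRAKO hearts, against 28.6, 37.0 and 36.1 in WT hearts. Apart from WT2368, the hearts lay within a narrow band (log2 difference 0.08, interval -0.20 to 0.37, and -0.03 without WT2368). Bnip3l had 8.54, 7.70 and 8.52 FPKM in SRAKO hearts, against 7.66, 8.05 and 7.75 in WT hearts, a log2 difference of 0.07 with an interval of -0.14 to 0.27.

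RNA levels of Aifm1, Endog and Diablo, genes of mitochondrial proteins released on outer membrane opening, differed by less than the spread. Aifm1, a flavoprotein needed for respiratory chain assembly, averaged 11.4 ± 0.699 FPKM in SRAKO hearts and 11.7 ± 1.37 in WT hearts. Endog, a mitochondrial nuclease that has been linked to cardiac hypertrophy in rodents, averaged 12.4 ± 2.09 and 13.8 ± 1.86 FPKM in SRAKO and WT hearts. Diablo, the gene of the XIAP antagonist SMAC, shares a row with AC157931.1 and fell into high and low hearts without regard to group. It had 6.86, 7.30 and 3.72 FPKM in SRAKO hearts, against 2.86, 7.61 and 7.23 in WT hearts.

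The wider pathway was read from 3 further lists of 94 genes, of which 70 were tested. None of the 70 passed adjustment over all rows in limma. An unadjusted p under 0.05 was reached by 3 higher and 1 lower, with a background of 1.9% and 1.56% in those directions. The groups did not overlap in 6 higher and 3 lower, against 4.28% and 3.76% of all rows. Both counts of higher genes include Sfn, which reached the filter through SRAKO hearts alone and so had to differ, and they are given as a description. The median log2 difference was 0.015, beside 0.0094 over all rows.

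Among 12 tested regulators of p53, 3 were higher and 9 lower in SRAKO hearts, with a median of -0.10. Hipk2, a kinase that phosphorylates p53 for its apoptotic programme, had 2.51, 2.13 and 2.74 FPKM in SRAKO hearts, against 3.68, 4.08 and 3.68 in WT hearts. Its groups were well apart, with a log2 difference of -0.48 (SE 0.10; limma, unadjusted p = 0.0015, adjusted p = 0.999). Daxx, a nuclear chaperone that binds p53 and FAS, went the other way at 3.64, 3.77 and 3.89 FPKM in SRAKO hearts, against 2.90, 3.13 and 3.06 in WT hearts. Its groups did not overlap either, and they differed by 0.24 on the log2 scale (SE 0.08; limma, unadjusted p = 0.019, adjusted p = 0.999). Next by p were the phosphatase gene Ppm1d, at 2.61 ± 0.295 and 2.27 ± 0.174 FPKM in SRAKO and WT hearts, and the acetyltransferase gene Ep300, in a row with Gm23880, at 2.30 ± 0.302 and 2.63 ± 0.138.

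Of 25 further p53 targets tested, 17 were higher and 8 lower, with a median of 0.08. Fdxr, the mitochondrial ferredoxin reductase, averaged 1.73 ± 0.191 FPKM in SRAKO hearts and 1.29 ± 0.177 in WT hearts (log2 difference 0.25, limma, unadjusted p = 0.0357, adjusted p = 0.999). Sfn, the cell cycle inhibitor 14-3-3 sigma, averaged 1.19 ± 0.194 and 0.776 ± 0.240 FPKM in SRAKO and WT hearts (limma, unadjusted p = 0.04, adjusted p = 0.999), and its difference supports nothing, for the reason given above. The repressor gene Bcl6 averaged 3.06 ± 0.743 and 1.98 ± 0.927 FPKM in SRAKO and WT hearts, and Pml, the organiser of nuclear bodies, 1.67 ± 0.168 and 2.21 ± 0.480. Gdf15, a secreted stress hormone of the heart, was low at 0.193 ± 0.121 and 0.209 ± 0.0264 FPKM in SRAKO and WT hearts and was not tested.

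Of 33 further apoptosis genes tested, 19 were higher and 14 lower, with a median of 0.01 and none at an unadjusted p under 0.05 in limma. Cycs, the gene of cytochrome c, averaged 99.4 ± 3.58 FPKM in SRAKO hearts and 98.8 ± 8.21 in WT hearts. The ubiquitin ligase gene Birc6 was at 1.01 ± 0.0330 and 1.21 ± 0.0812 FPKM in SRAKO and WT hearts, and Birc3, a relative of Xiap, at 1.55 ± 0.0596 and 1.34 ± 0.138. The anti-apoptotic Bcl2l2, in a row with Gm20521 and Pabpn1, was at 6.87 ± 0.709 and 5.71 ± 1.28 FPKM in SRAKO and WT hearts, and Bcl2l12 at 3.51 ± 0.576 and 2.89 ± 0.555.

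**Figure D4:**
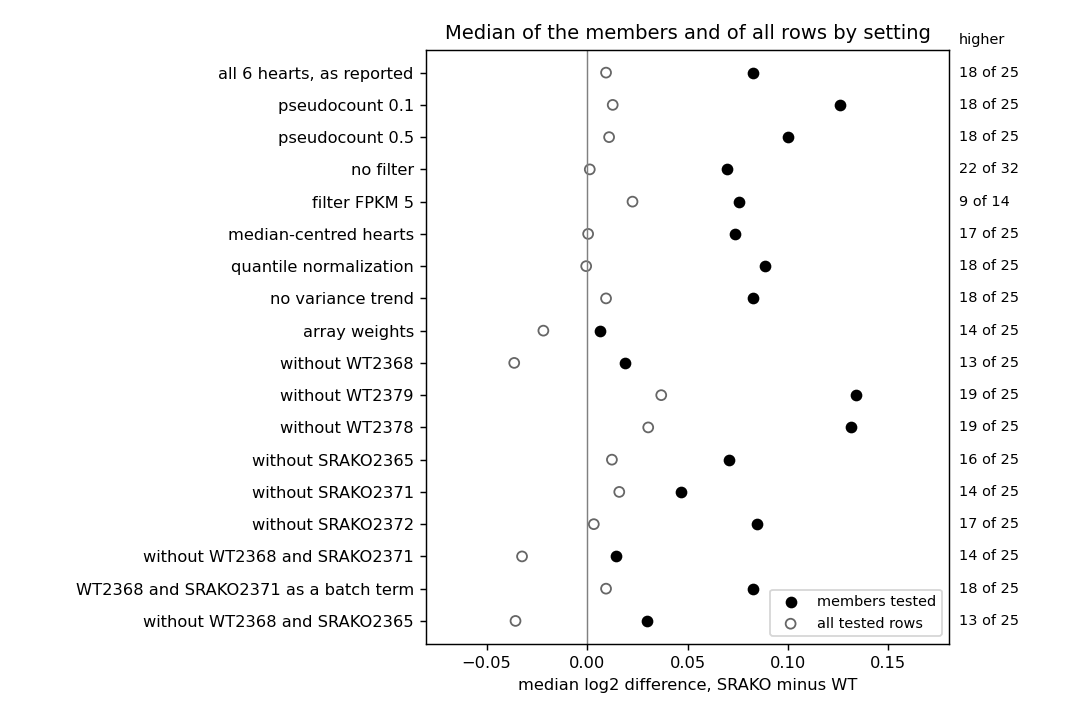
Median log2 difference, SRAKO minus WT, of the tested members (filled) and of all tested rows (open) as reported and under each alternative, with the number of members higher in SRAKO at the right. The member median lies between 0.0063 and 0.13, and array weights and the settings without WT2368 give the lowest values.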

How the data were processed

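The authors deposited FPKM per gene for each heart, per the file headers. The submitters' processing notes list HISAT2 2.0.4, cutadapt 1.9, edgeR and StringTie 1.3.4d, without their roles, and name build hg38, while identifiers are mouse genes. Of 81263 Ensembl transcript identifiers 99.6% matched GENCODE M21 (GRCm38), the source of gene positions. Of the 32 members 18 sit in rows assembled by StringTie, which can merge neighbours, and strand is not stated.

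Groups came from sample titles. log2(FPKM + 1) was fitted by genotype in limma 3.58.1 (R 4.3.3) with a variance trend, a prior of 3.69 degrees of freedom and Benjamini-Hochberg adjustment at 0.05. Log2 differences on this scale understate changes of low genes. Code was tested on simulated data. No counts were used, so intervals rest on the spread between hearts. Members, lists and markers were chosen with earlier results of these data known. Per-heart values go to members with an unadjusted p under 0.05 or groups that do not overlap, and to 15 chosen for their role. Up to 4 genes per further list with the smallest p are named, plus Cycs, Gdf15 and Hipk2, and a further gene of that rule is not reported here. Gadd45g, Bad and Diablo were given by heart, and Ddit4 and Btg2 named, after their values were seen. The symbols Cop1 and Septin4 were matched through RefSeq synonyms. Promoters are RefSeq's (GRCm38.p6). The alternatives were other pseudocounts, filters, scalings and variance models, sums over rows, and hearts left out.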

Additional observations from a re-analysis of the deposited data

How the results depend on the processing

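No member passed adjustment under any alternative run. The number of all rows called was 2 as reported and 1 with a pseudocount of 0.1 or a filter at 5 FPKM. It was 0 with no filter, without WT2368 and SRAKO2371, or with that pair as a batch term. The labels give no batch, so that pair does not come from them. The number was also 0 without WT2368 and SRAKO2365, a pair chosen after seeing the data. With 1 heart left out it ran from 0 to 7. Members at an unadjusted p under 0.05 in limma numbered 2 of 25 as reported and 1 of 25 with array weights. With 1 heart left out they numbered 1 to 3 of 25. The share of all rows was 3.46% as reported, 6.62% with array weights and 2.02% to 6.7% with 1 heart left out. Without WT2368 it was 6.7%, with 1 member. The filter at 5 FPKM kept 14 members, 9 of them higher and 1 at an unadjusted p under 0.05, against 2.57% of all rows. The member median of 0.08 was 0.0063 with array weights, 0.015 without WT2368 and SRAKO2371, and 0.019 to 0.13 with 1 heart left out. The median of all rows, 0.0094 as reported, moved as well. It was -0.022 with array weights, -0.032 without that pair, and -0.036 to 0.037 with 1 heart left out.

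Directions near 0 turned. Bax was at -0.0035 with median-centred hearts, -0.025 with array weights, -0.018 without WT2368 and SRAKO2371 and -0.0027 without WT2368 and SRAKO2365. In those last 3 settings Trp53 was at -0.059, -0.081 and -0.10. Mdm2 was at 0.0063 and 0.078 in the first pair of those 3, Bnip3 at -0.023 and -0.012 in the last pair, and Ccng1 at 0.015 without WT2368 and SRAKO2371. With 1 heart left out the ranges were -0.082 to 0.15 for Trp53, -0.20 to 0.057 for Mdm2, -0.057 to 0.044 for Bax, -0.17 to 0.71 for Bcl2l1 and -0.032 to 0.15 for Bnip3. The Bax to Bcl2 difference ran from -0.029 to 0.15 and the Bax to Bcl2l1 difference from -0.68 to 0.21. The cause of these turns was not tested. Summing rows changed nothing, as each member has 1 row. No paired analysis was possible because the hearts share no replicate number. Genes under 1 FPKM rest on few reads, and Sra1 had no value under the filter at 5 FPKM.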

Other observations

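SRAKO2365 and WT2368, a heart of each group, resembled each other in some stress-responsive genes, seen only after the values were examined. Both had the lowest Cdkn1a of their group, at 23.7 and 16.3 FPKM, and the lowest Gadd45g, at 5.79 and 3.11 FPKM. Ddit4, an mTORC1 inhibitor induced by glucocorticoids and hypoxia, was lowest in the same hearts, at 28.9 FPKM in SRAKO2365 and 19.5 in WT2368, against 40.7 to 49.0 in the others. Bcl2l1 and the erythroid marker sum were highest in them. Btg2, another p53 target, was lowest in WT2368, but among SRAKO hearts it was lowest in SRAKO2371, at 11.2 FPKM against 13.2 in SRAKO2365. WT2368 held the lowest value of the 6 hearts in 44.9% of all rows tested, so a low value there is common. In mt-Rnr1 WT2368 lay closer to SRAKO2371 than to SRAKO2365.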
